A study of Macaca mulatta with 7 samples.

Results

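The zinc finger genes of chromosome 19 were examined in the sperm RNA of 7 rhesus macaques (Macaca mulatta). The members are the genes whose symbol is ZNF followed by a number, with or without 1 further letter, and whose exons lie on chromosome 19, which gave 212 of the 18282 genes in the files. A further 247 genes with such a symbol lie on other chromosomes and serve for comparison. The labels place 3 animals in a group called Maltreated and 4 in a group called Control, with ages of 5.67 to 5.78 years in Maltreated and 5.72 to 5.92 years in Control animals. The labels give neither genotype nor what the maltreatment was. In both groups sperm cells were purified on a PureSperm 40/80 gradient, and their total RNA was extracted with TRIzol and sequenced, 1 library per animal as far as the titles say. The comparison asks whether the RNA carried by sperm differs after maltreatment.

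Most genes of this family encode transcription factors with a row of zinc fingers that bind DNA, and many carry a KRAB domain in front of the fingers. KRAB zinc finger proteins recruit TRIM28 and the histone methyltransferase SETDB1 and silence transposable elements and imprinted genes. In primates a large share of the family stands in tandem clusters on chromosome 19, where genes multiplied by duplication. In human genes of this kind the KRAB A box usually has a short exon of its own, and the finger array sits in 1 long last exon. Mature sperm are largely silent in transcription, so their RNA is mostly what was made in earlier germ cells.

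Of the members, 97 lie on the plus and 115 on the minus strand of chromosome 19, between ZNF554, which starts at base 2680700, and ZNF579, which ends at base 53051223, in the coordinates of the files. The sources used here name no genome build. The median member had 4 exons and 2685 exon bases. A length of 127 bases was the most frequent exon length, with 154 of 980 exons, followed by 96 bases with 49 exons. Such an exon of 127 bases, a length picked out after the data were seen, was present in 152 of 212 members (71.7%), in 87 of 247 zinc finger genes of other chromosomes (35.2%), in 60 of the 1070 other genes of chromosome 19 (5.61%) and in 1225 of all 18282 genes (6.70%). The reference supplied held no sequences, so the domain that each exon encodes was not looked up.

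The depth was 6160996 to 30715268 sense counts in Maltreated libraries and 5316383 to 9847743 in Control libraries, a sense count being a count on an exon entry on the strand of the gene. A read that touches several exon entries can count on each of them, so the depth is a number of counts and not of reads. The level used below is the sense count in CPM, the count scaled to the total sense count of the library, divided by the exon length in kb. That length is the end minus the start, as in the deposited tables, which is 1 base per exon less than the exon lengths given in the text. The 10 sperm markers summed to 46211 to 99375 CPM in Maltreated and 46541 to 60522 in Control libraries, and only SPACA3 was at 0, in Control 4. A list of 16 leukocyte markers summed to 1162 CPM in Maltreated 3 and 813 in Control 4, against 28.1 to 76.1 in the other 5 libraries. CD68 (390 CPM) and CD74 (265 CPM) led the list in Maltreated 3, where no marker was at 0. CD74 (502 CPM) led it in Control 4, where FCER1G was at 0. The part of these cells in the levels below was not tested. The 7 markers of epithelium and accessory glands summed to 288 CPM in Control 2, of which TGM4 alone held 246, and to 4.92 to 31.8 elsewhere. EPCAM was at 0 in Maltreated 2, Control 1, Control 3 and Control 4, and at 0.181 in Control 2. The 10 markers of earlier germ cells summed to 448 to 700 CPM. In bulk RNA, fewer cells of a type and less RNA per cell cannot be told apart.

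All 212 members had a sense count in at least 1 library, and 124 (58.5%) had one in all 7. The same was true of 121 of 247 zinc finger genes of other chromosomes (49.0%) and of 8391 of all 18282 genes (45.9%). Most members were scarce and a few were abundant. A mean level of at least 1 was reached by 147 members, of at least 10 by 59 and of at least 100 by 5. The 10 most abundant members held 42.7% of the sense counts of the family on chromosome 19, and the family held 0.516 to 0.734% of all sense counts in Maltreated and 0.616 to 0.751% in Control libraries.

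ZNF493 had the highest level. It lies on the plus strand at bases 20824605 to 20837850 and ranked 115 among all genes. Its level was 231, 406 and 533 in Maltreated 1 to 3 and 328, 588, 490 and 309 in Control 1 to 4. Both groups thus spanned much the same range. ZNF468 followed with 157, 251 and 261 in Maltreated and 212.8, 201, 324 and 391.7 in Control libraries, a value that rests on a single exon entry of 74 bases with 81 to 352 counts. ZNF224, a KRAB repressor first described at the human aldolase A promoter, stood at 146, 270 and 205 in Maltreated and 201, 236, 203 and 36.2 in Control libraries. Control 4 stood far below the other 6 libraries for ZNF224.

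ZNF577 stood at 149, 135 and 173 in Maltreated and 152, 88.7, 111 and 50.1 in Control libraries. The Maltreated libraries were close together and 3 of 4 Control libraries lay below them. ZNF816 stood at 63.0, 99.9 and 91.0 in Maltreated and 83.4, 89.6, 121 and 242 in Control libraries, so that here Control 4 was the highest. Within each library the exons of ZNF816 had much the same count, and the nearest exon of its neighbour ZNF320 had nearly that count too. The part of counts shared with ZNF320 in the level of ZNF816, and in its Control 4 value, was not tested. ZNF253 had levels of 64.2, 78.2 and 113 in Maltreated and 111, 124, 95.5 and 35.7 in Control libraries. ZNF649 had 34.9, 44.5 and 54.4 in Maltreated and 44.5, 179, 70.9 and 47.6 in Control libraries, with Control 2 well above the rest. The other members among the 10 were ZNF880, ZNF101 and ZNF568. ZNF568 is the gene whose mouse counterpart silences a placental transcript of Igf2, and it had 78.9, 55.5 and 59.9 in Maltreated and 80.8, 55.6, 33.7 and 47.8 in Control libraries. The counts of ZNF577, ZNF816 and ZNF568 include repeated exon entries, which raise their levels above those with each exon counted once. The rank of these genes with each exon counted once was not examined. The groups overlapped for each of these 10 genes.

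**Figure D1:**
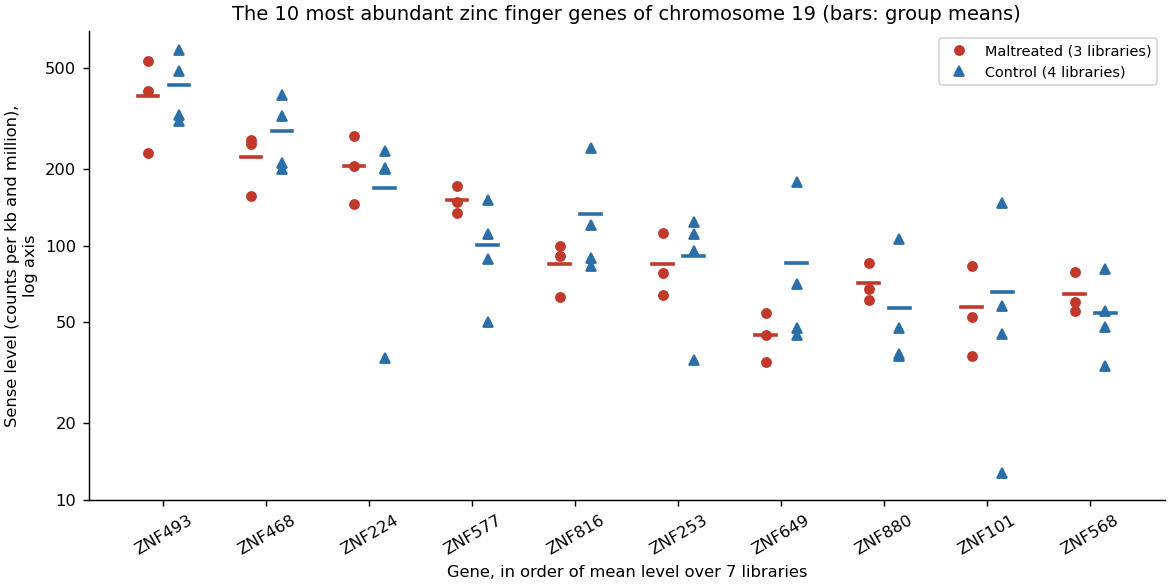
Sense level, in CPM per kb of exon on a log axis, of the 10 most abundant members in each Maltreated (circles, left of each pair) and Control library (triangles); bars are group means. ZNF493 lies at 231 to 588, and the low triangles of ZNF224, ZNF253 and ZNF101 are Control 4. Repeated exon entries raise the levels of ZNF577, ZNF816 and ZNF568.

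On other chromosomes the highest levels belonged to ZNF720 of chromosome 16 (mean 163 ± 73.8, SD, n = 7), ZNF236 of chromosome 18 (152 ± 19.5), ZNF10 of chromosome 12 (82.2 ± 21.0), ZNF148 of chromosome 3 (73.5 ± 19.7) and ZNF713 of chromosome 7 (70.5 ± 16.0). The human ZNF10 protein is the source of the KRAB domain used in many synthetic repressors. ZNF493 at 412 ± 130 (SD, n = 7) and ZNF468 at 257 ± 79.4 (SD, n = 7) had higher means than all of these.

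The median member had a level of 1.77, 1.96 and 2.21 in Maltreated 1 to 3 and of 2.95, 2.65, 2.30 and 1.02 in Control 1 to 4. The median zinc finger gene of other chromosomes had 0.859, 0.691 and 0.916 in Maltreated and 0.711, 1.12, 0.768 and 0.712 in Control libraries. The median over all genes was 1.06, 0.439 and 1.57 in Maltreated and 0.777, 1.04, 0.712 and 0.886 in Control libraries. The median of the chromosome 19 genes was thus above both others in 7 of 7 libraries, by a ratio of 1.43 (Control 4) to 4.16 (Control 1) to the zinc finger genes elsewhere. Genes are not replicates, and no test was made of this difference. The ratio was smaller when only the count by which an exon exceeds its lower neighbouring exon was kept. It was then 1.31 to 2.79 in 6 libraries and 0.530 in Control 4.

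Among genes of exactly 4 exons, chosen after the data were seen because exon number differs between the sets, the median level was 2.96, 3.59 and 3.23 in Maltreated and 4.80, 4.18, 3.63 and 1.80 in Control libraries for 74 members. For 47 zinc finger genes of other chromosomes it was 0.752, 0.364 and 0.906 in Maltreated and 0.589, 1.28, 0.631 and 0.511 in Control libraries. The members were higher in every library in this subset too. With only the counts above the lower neighbouring exon, the medians in Control 4 were 0.304 for members and 0.878 for zinc finger genes elsewhere. In every other library the members stayed higher by that measure.

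Chromosome 19 genes were more often covered over their whole length. The covered fraction is the share of a gene's exon bases touched by at least 1 sense read. Every exon base was covered in 72.6, 29.2 and 48.6% of members in Maltreated 1 to 3 and in 48.6, 45.8, 34.4 and 33.5% in Control 1 to 4. For zinc finger genes of other chromosomes these shares were 41.3, 9.72 and 20.2% in Maltreated and 18.6, 10.9, 12.6 and 13.8% in Control libraries. Full coverage in all 7 libraries was found in 30 members (14.2%), in 1 zinc finger gene elsewhere (0.405%) and in 195 of all genes (1.07%). ZNF493, ZNF468, ZNF816, ZNF253 and ZNF101 were among the fully covered members. Of these, ZNF468 has a single exon entry of 74 bases, and ZNF101 and ZNF816 had nearly the same count on every exon. The part of counts shared between exons in the coverage was not tested.

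Counts were not spread over exons in proportion to their length. The longest exon, which was the last in 185 of the 208 members with several exons, made up a median of 84.2% of a member's exon bases and carried a median of 21.1% of its sense counts. For zinc finger genes of other chromosomes these medians were 78.4 and 19.9%, and for all genes 48.4 and 9.59%. The short exon of 127 bases often had more counts than the long one. In ZNF224 the exon of 127 bases had 5010, 1776 and 2448 counts in Maltreated 1 to 3 and 2083, 1399, 1315 and 236 in Control 1 to 4. The last exon of ZNF224, of 2060 bases, had 164, 55 and 90 counts in Maltreated and 96, 66, 67 and 0 in Control libraries. The short exon of ZNF224 had the higher count in 7 of 7 libraries. In ZNF649 the short exon had 843, 229 and 405 counts in Maltreated and 348, 728, 307 and 157 in Control libraries. Its exon of 1139 bases had 16, 1 and 17 counts in Maltreated and 6, 3, 1 and 33 in Control libraries, again fewer in 7 of 7. ZNF493, the most abundant member, has no exon of 127 bases, and its short exon of 124 bases had 7343, 2580 and 6211 counts in Maltreated and 3343, 3386, 3275 and 1646 in Control libraries. The exon of 1174 bases of ZNF493 had 78, 40 and 44 counts in Maltreated and 27, 1, 19 and 19 in Control libraries. The levels per kb of these genes therefore rest on short exons more than on the long exon.

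In the 149 members with exactly 1 exon of 127 bases among at least 3 exons, this exon had more counts than the longest exon in 90, 72 and 87 members in Maltreated 1 to 3 and in 87, 92, 73 and 49 in Control 1 to 4. The longest exon had more in 54, 29 and 53 members in Maltreated and in 36, 33, 32 and 39 in Control libraries. Summed over these members, the short exons held 2.66, 3.12 and 2.90 times the counts of the long exons in Maltreated and 2.75, 3.41, 3.16 and 1.87 times in Control libraries. The long exons had a median length of 2294 bases. The pattern was not limited to chromosome 19, since 87 zinc finger genes elsewhere gave ratios of 2.96, 4.13 and 3.295 in Maltreated and 3.15, 5.69, 4.56 and 3.55 in Control libraries. Of the 149 members, 32 had more counts on the short exon in all 7 libraries and 29 in none.

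**Figure D2:**
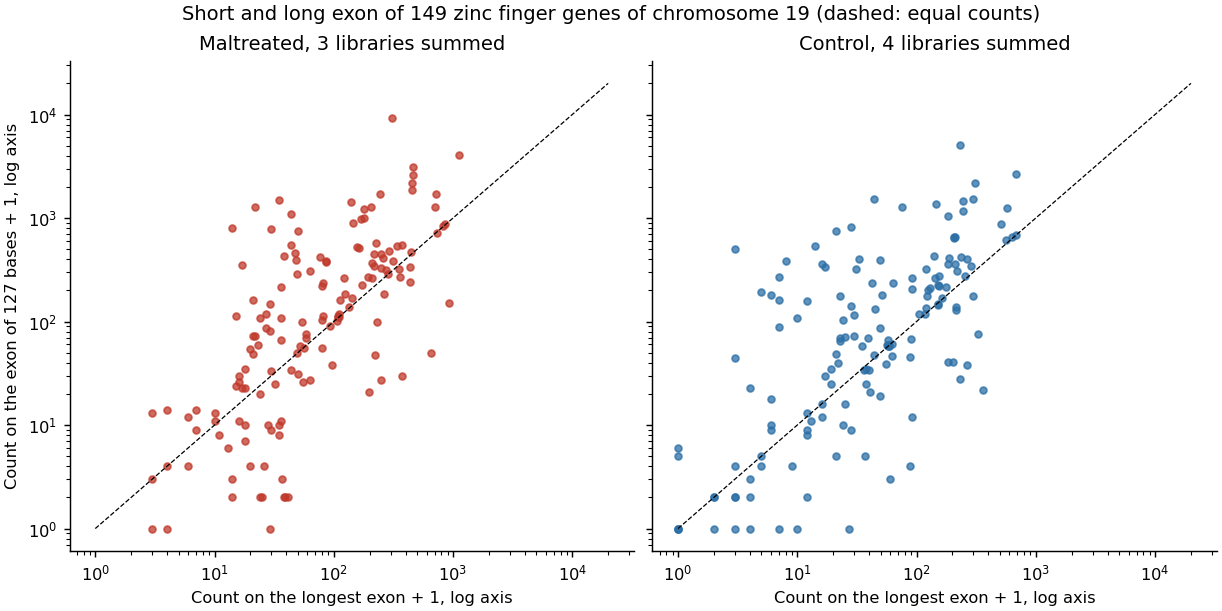
Summed sense count on the exon of 127 bases against that on the longest exon, each plus 1 on log axes, for 149 members in Maltreated (left) and Control libraries (right); the dashed line marks equal counts. Points above the line, such as ZNF224 at the top, have more counts on the short exon.

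The members form 19 groups of neighbours when genes less than 500 kb apart are joined. Of these, 9 have at least 5 members, and the groups are ranked among those 9. The 16 genes from ZNF101 to ZNF726 (bases 19472001 to 22036230) had the highest median level of the 9 in each library, at 10.8, 14.6 and 16.7 in Maltreated 1 to 3 and 22.0, 20.03, 29.1 and 13.1 in Control 1 to 4. ZNF493, ZNF253 and ZNF101 belong to this group. ZNF333, which stands alone, was higher than this median in all 7 libraries, at 39.5, 26.1 and 23.8 in Maltreated and 31.1, 28.9, 41.5 and 28.9 in Control libraries. The 35 genes from ZNF175 to ZNF331 (46308722 to 48383372), with ZNF468, ZNF577, ZNF816, ZNF649 and ZNF880, had medians of 6.49, 8.01 and 8.70 in Maltreated and 8.49, 8.57, 9.20 and 8.20 in Control libraries. These values lie closer together across libraries than those of the other groups named here. The 57 genes from ZNF628 to ZNF579 (50150062 to 53051223), the largest group, had medians of 0.404, 0.0469 and 0.491 in Maltreated and 0.298, 0.406, 0.0557 and 0.584 in Control libraries. This was the lowest of the 9 groups in 6 of 7 libraries, the exception being Control 4, and 41 of its genes had no count in at least 1 library.

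The 21 genes from ZNF653 to ZNF791 (11290977 to 12341317) had median levels of 4.80, 11.48 and 3.33 in Maltreated and 5.48, 4.43, 5.66 and 1.83 in Control libraries, with Maltreated 2 the highest and Control 4 the lowest. The 22 genes from ZNF575 to ZNF180 (38373508 to 39292638), with ZNF224 and ZNF225, had 3.26, 2.58 and 5.51 in Maltreated and 7.09, 7.05, 7.45 and 0.721 in Control libraries. The 25 genes from ZNF565 to ZNF573 (31736178 to 33214987), with ZNF568 and ZNF585B, had 1.21, 0.710 and 2.09 in Maltreated and 1.19, 2.26, 1.59 and 1.01 in Control libraries.

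**Figure D3:**
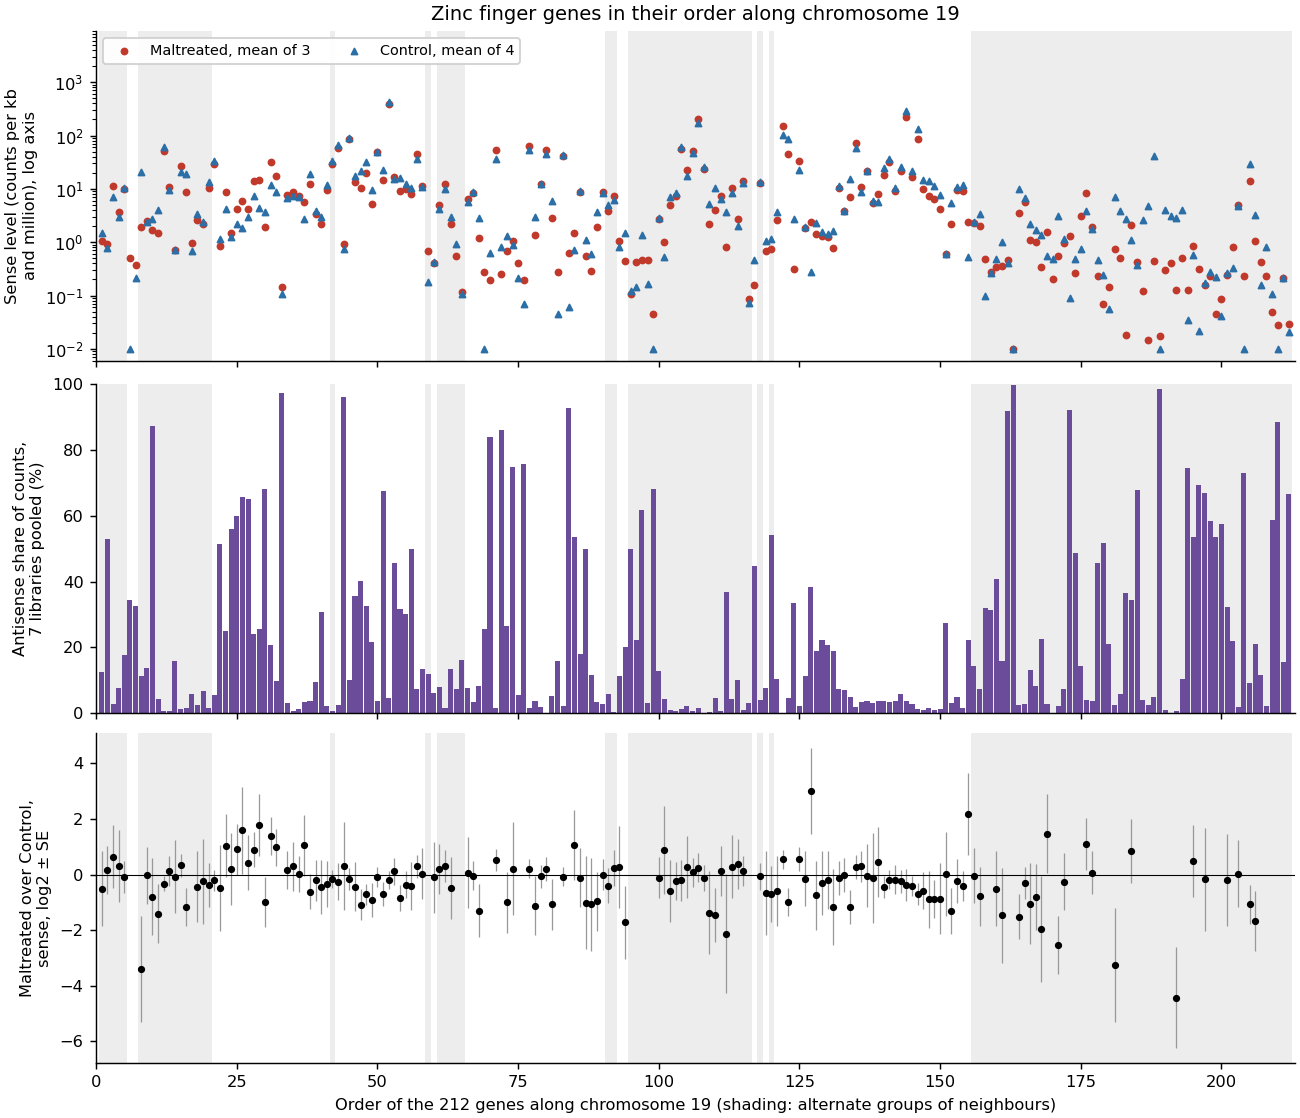
The 212 members in their order along chromosome 19, with alternate groups of neighbours shaded: mean sense level of Maltreated (circles) and Control (triangles) on a log axis with lower values drawn at 0.01 (top), antisense share of counts (middle), and log2 fold change of Maltreated over Control with its SE for the 156 tested members (bottom). Levels are low over the last group, and antisense shares are high in separate stretches.

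Antisense counts, on the strand opposite to the gene, made up 12.3, 14.8 and 10.9% of the counts of members in Maltreated 1 to 3 and 11.8, 13.4, 11.8 and 12.6% in Control 1 to 4. For zinc finger genes of other chromosomes the shares were 5.18, 4.59 and 5.51% in Maltreated and 5.46, 5.39, 4.58 and 10.8% in Control libraries. Over all genes they were 6.15, 9.69 and 8.45% in Maltreated and 6.85, 10.4, 8.86 and 12.1% in Control libraries. Only 3 members overlap an annotated gene on the opposite strand. The antisense share of pooled counts was 25.4% in the group from ZNF653 to ZNF791, 23.5% from ZNF101 to ZNF726 and 23.4% from ZNF628 to ZNF579. It was 2.82% from ZNF175 to ZNF331 and 2.25% from ZNF575 to ZNF180.

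A fit of antisense over sense counts within libraries (edgeR quasi-likelihood test, Benjamini-Hochberg over 7635 genes) tested 127 members. Of these, 89 had more sense and 5 more antisense counts at an adjusted p under 0.05, that is 70.1% and 3.94% of the members tested, where 83.1% and 2.57% of all tested genes passed. Of 101 zinc finger genes tested on other chromosomes, 91 (90.1%) had more sense and 1 (0.990%) more antisense counts. The median log2 ratio was -4.94 in members, -6.42 in zinc finger genes elsewhere and -5.74 in all genes. The members with more antisense counts were ZNF14, ZNF570, ZNF417, ZNF837 and ZNF317.

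ZNF14 had 1642, 475 and 1304 antisense counts in Maltreated 1 to 3 and 828, 1200, 395 and 104 in Control 1 to 4, beside 145, 8 and 34 sense counts in Maltreated and 0, 48, 4 and 3 in Control libraries. Its log2 antisense over sense was 5.64 ± 1.06 (SE, edgeR adjusted p = 3.07e-05). ZNF570 had 203, 346 and 74 antisense counts in Maltreated and 172, 25, 82 and 40 in Control libraries, beside 54, 11 and 7 sense counts in Maltreated and 0, 3, 0 and 0 in Control libraries. Its ratio was 5.05 ± 1.32 (edgeR adjusted p = 0.00106). ZNF417, whose human gene product binds an endogenous retrovirus, had 428, 200 and 133 antisense counts in Maltreated and 122, 102, 72 and 49 in Control libraries, beside 34, 38 and 17 sense counts in Maltreated and 8, 0, 0 and 0 in Control libraries. Its ratio was 4.81 ± 1.26 (edgeR adjusted p = 0.00103). The exon of 1865 bases of ZNF417 held nearly all of its antisense counts, 424, 198 and 129 in Maltreated and 120, 92, 72 and 47 in Control libraries. Antisense counts exceeded sense counts in every library for these 3 genes. ZNF837 had a log2 ratio of 4.42 ± 1.19 (edgeR adjusted p = 0.00131) and ZNF317 of 2.76 ± 1.05 (adjusted p = 0.0170). For ZNF317 the ratio was 2.31 without Control 1 and 2.52 without Maltreated 1, and in both fits it no longer passed. On the strand that these antisense counts come from, ZNF569 lies 1616 bases downstream of ZNF570, and the mucin gene MUC16, with 116680 to 889545 sense counts, lies 120472 bases downstream of ZNF317. The lowest exon of MUC16 had 41, 3 and 21 sense counts in Maltreated and 23, 12, 3 and 1 in Control libraries. The lowest antisense exon count of ZNF317 was 145, 0 and 29 in Maltreated and 21, 36, 11 and 10 in Control libraries. ZSCAN22 lies 23623 bases upstream of ZNF837, with lowest exon counts of 73, 14 and 43 in Maltreated and 42, 116, 42 and 2 in Control libraries. The exon of 1716 bases of ZNF837 had nearly the same antisense counts, 72, 14 and 44 in Maltreated and 43, 116, 42 and 2 in Control libraries. Its exon of 83 bases had 197, 46 and 60 in Maltreated and 48, 29, 41 and 54 in Control libraries. The part of reads from such neighbours in the antisense counts was not tested.

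At the other end, ZNF577 had 8, 0 and 6 antisense counts in Maltreated and 2, 0, 0 and 0 in Control libraries, beside 838 to 14370 sense counts. Its log2 ratio was -11.56 ± 1.02 (edgeR adjusted p = 4.68e-10). ZNF225, ZNF585B, ZNF177 and ZNF101 followed with log2 ratios of -9.86, -9.49, -9.34 and -8.93. ZNF585B overlaps ZNF585A on the same strand, so their counts cannot be told apart where the exons are shared; the same holds for ZNF564 and ZNF490. The zinc finger genes are close paralogs, and the sources used here do not say how the authors treated reads that map to several of them.

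Neighbouring genes shared identical counts. The lowest count on any exon, multiplied by the number of exons, gives the counts of a gene at the level of its lowest exon. Separate reads spread evenly over the exons raise this product too, so it is an upper bound on counts that all exons share. The product came to 24.4, 22.5 and 24.6% of the sense counts of members in Maltreated 1 to 3 and to 26.1, 22.0, 22.2 and 30.8% in Control 1 to 4. For zinc finger genes of other chromosomes it came to 7.06, 3.46 and 4.83% in Maltreated and 4.51, 3.27, 3.78 and 5.11% in Control libraries, and over all genes to 9.74 to 12.6%. A narrower measure, counts on exons with exactly the count of both neighbouring exons, gave 0.115, 2.46 and 0.281% in Maltreated and 0.985, 0.519, 1.40 and 9.08% in Control libraries for members. Over all genes this narrower measure gave 0.281, 1.75 and 0.723% in Maltreated and 0.773, 1.05, 1.84 and 3.35% in Control libraries, so that members were above all genes in Maltreated 2, Control 1 and Control 4 and below in the other 4 libraries. The share at the level of the lowest exon also depends on the number of exons. Among genes of exactly 4 exons it came to 27.5, 26.8 and 24.1% for members in Maltreated and 29.0, 23.6, 21.0 and 33.99% in Control libraries. For all genes of 4 exons it came to 29.8, 37.5 and 27.6% in Maltreated and 34.7, 47.4, 39.7 and 26.8% in Control libraries, above the members in 6 of 7 libraries. The zinc finger genes of other chromosomes with 4 exons had 2.58 to 12.3%, below the members in each library.

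**Figure D4:**
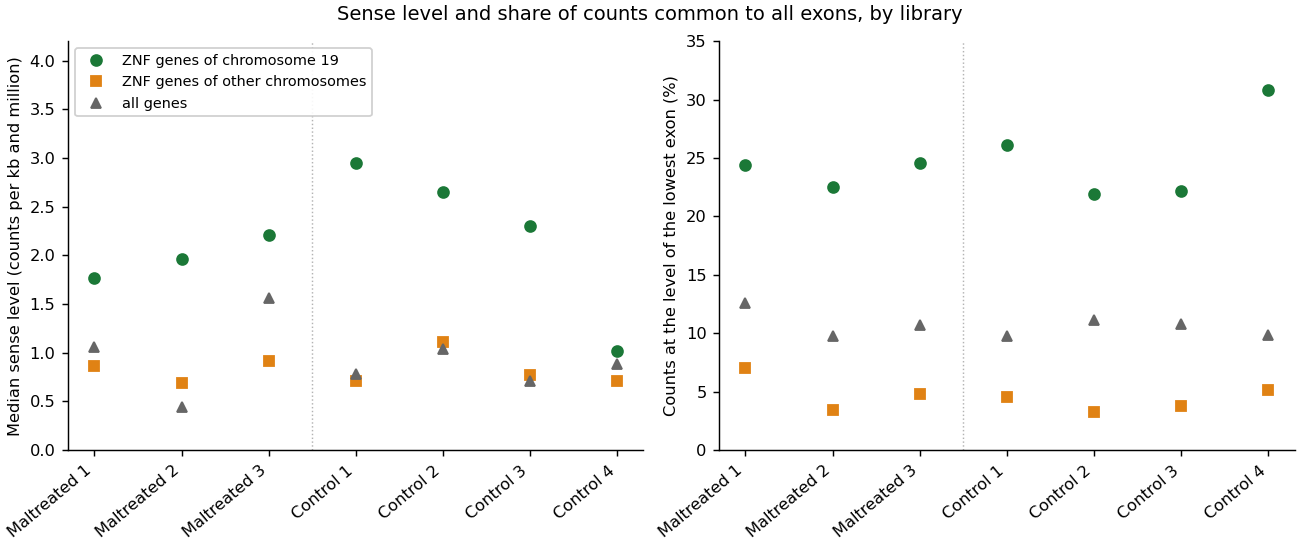
Left, median sense level per library, in CPM per kb of exon, of members (circles), zinc finger genes of other chromosomes (squares) and all genes (triangles). Right, percent of sense counts at the level of the lowest exon. The members lie above both other sets in all 7 libraries in both panels, on the left least so in Control 4 (1.02 against 0.712 and 0.886); on the right, all genes lie above the members in 6 of 7 libraries when only genes of 4 exons are taken.

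In places the same lowest exon count ran over many genes. Runs of at least 3 neighbouring genes with the same lowest exon count of at least 10 on 1 strand of 1 library, a definition chosen after the data were seen, took in 60 of 212 members (28.3%). They took in 17 of 247 zinc finger genes elsewhere (6.88%), 161 of the 1070 other genes of chromosome 19 (15.05%) and 1234 of all genes (6.75%). In Control 4, each exon of 15 genes from ZNF211 to ZNF547 (bases 51127781 to 51394034) had at least 57 counts on the minus strand, and exactly 57 on the lowest exon of each gene. For 12 of these genes this is the sense strand, and for ZNF416, ZNF550 and ZNF772 it is the antisense strand. In the other 6 libraries the lowest exon of these genes had 0 to 5 counts on that strand. Another run covered 10 members from ZNF441 to ZNF136 (11579220 to 11959038) with 17 counts in Control 3. In Maltreated 2 the same stretch had 65 counts on the lowest exon from ZNF441 to ZNF433 and 119 from ZNF20 to ZNF136.

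The run at the ZNF101 locus was present in all 7 libraries. The lowest exon count of ZNF101 on the plus strand was 410, 119 and 326 in Maltreated 1 to 3 and 207, 300, 99 and 25 in Control 1 to 4. ZNF14, which lies 26010 bases from ZNF101 on the other strand, had lowest antisense exon counts of 410, 117 and 326 in Maltreated and 207, 300, 98 and 25 in Control libraries. The genes before ZNF101, namely PBX4, LPAR2, GMIP and ATP13A1, are annotated on the minus strand and had the same lowest plus-strand counts to within 1. The sense level of ZNF101 (36.7, 52.4 and 83.3 in Maltreated; 58.0, 148, 45.0 and 12.8 in Control libraries) and the antisense excess of ZNF14 thus rest on nearly identical exon counts.

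**Figure D5:**
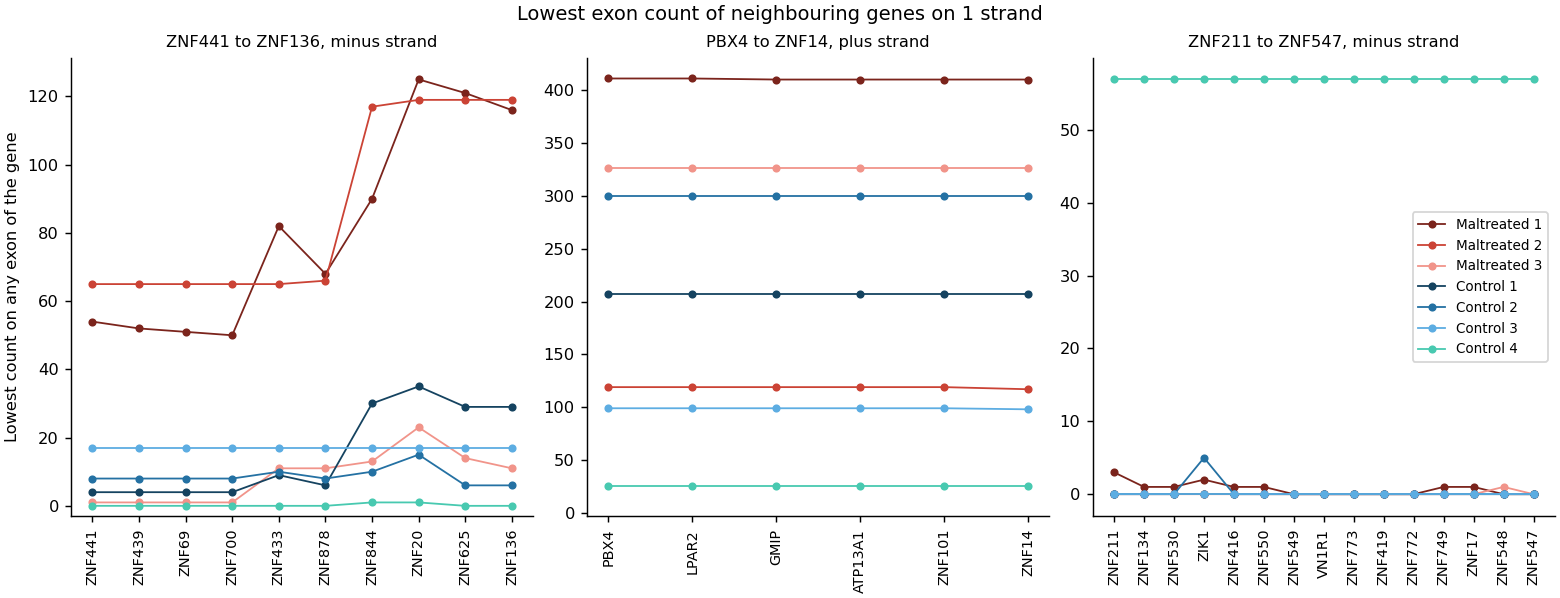
Lowest count on any exon of each gene, on the strand named above each panel, for 3 runs of neighbouring genes; red lines are Maltreated and blue to green lines Control libraries. The lines are flat at 25 to 411 over the PBX4 to ZNF14 run in all libraries, and flat at 57 in Control 4 alone over the ZNF211 to ZNF547 run.

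In sense counts, no member passed an adjusted p of 0.05 between Maltreated and Control sperm. More members had a negative than a positive log2 fold change, and several of the largest values rest on 1 library. The edgeR quasi-likelihood fit with Benjamini-Hochberg adjustment tested 10719 genes, 156 of them members, and called 0 members and 0 genes in all (0% of those tested). No adjusted p was below 0.999. At an unadjusted p under 0.05 there were 2 members, or 1.28% of those tested, where 1.78% of all tested genes passed. The DESeq2 Wald test called 0 members and 3 genes in all. The labels do not say whether libraries come from separate collections, so p-values measure only the spread between these samples. The log2 fold change was positive in 55 and negative in 101 tested members, with a median of -0.18. The median was -0.09 in 160 zinc finger genes of other chromosomes and -0.02 in all tested genes. In TMM-scaled counts the groups did not overlap for 1 member higher in Maltreated (2.10% of all tested genes were higher in this way) and 2 members lower (1.49% of all tested genes).

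ZNF548 had the smallest p. Its level was 0.142, 0 and 0.237 in Maltreated 1 to 3 and 0.631, 0.583, 0.0767 and 9.88 in Control 1 to 4. Control 4 alone stood high, and it lies in the run of 57 counts: 57 counts on each of its 4 exons make up its 228 counts there. The log2 fold change was -4.42 ± 1.81 (SE, edgeR unadjusted p = 0.0336, adjusted p = 0.999). Without Control 1, Control 2 or Control 4 the gene had too few counts to be tested. ZNF548 thus entered the test only through Control libraries, where it was higher, so its negative value is not independent of the filter. ZNF418 stood at 0.522, 0.390 and 0.750 in Maltreated and 1.87, 1.89, 2.54 and 6.34 in Control libraries. All 4 Control libraries were above all 3 Maltreated ones. Its log2 fold change was -2.53 ± 1.04 (edgeR unadjusted p = 0.0344, adjusted p = 0.999) and -1.98 without Control 4. The highest value of ZNF418 belonged to Control 4, a library with many leukocyte transcripts. Without Control 4 and Maltreated 3 the log2 fold change was -2.19.

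ZNF90, the other member without overlap, had 17.1, 20.9 and 21.9 in Maltreated and 33.8, 22.0, 36.6 and 34.8 in Control libraries. Its log2 fold change was -0.71 ± 0.39 (edgeR adjusted p = 0.999). Its highest Maltreated and lowest Control value were nearly equal. The next smallest p among members with a negative fold change belonged to ZNF682 (-1.08 ± 0.55), ZNF649 (-0.97 ± 0.50) and ZNF610 (-1.17 ± 0.60), each with an edgeR adjusted p of 0.999. ZNF610 had 11.4, 3.29 and 6.045 in Maltreated and 18.6, 11.7, 19.4 and 11.4 in Control libraries, with Maltreated 1 just under the lowest Control library. The TMM-scaled counts of ZNF610 overlapped. For ZNF649 the log2 fold change was -0.33 without Control 2, and for ZNF682 it was -0.62 without Control 3.

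Among the members with a positive log2 fold change, ZNF614 had 1.10, 4.03 and 2.13 in Maltreated and 0.882, 0.224, 0 and 0 in Control libraries. The groups did not overlap, but the counts behind these levels were 82, 60 and 55 in Maltreated and 21, 3, 0 and 0 in Control libraries. The log2 fold change was 3.00 ± 1.55 (edgeR adjusted p = 0.999). ZNF20 had 14.5, 70.2 and 8.88 in Maltreated and 12.2, 15.7, 13.1 and 6.46 in Control libraries, so that Maltreated 2 alone stood apart. ZNF878 had 6.71, 35.5 and 2.68 in Maltreated and 4.85, 4.43, 7.86 and 0.225 in Control libraries. ZNF625 had 10.5, 36.7 and 5.65 in Maltreated and 9.76, 6.05, 8.77 and 10.9 in Control libraries. These 3 neighbours lie in the stretch from ZNF441 to ZNF136, where Maltreated 2 had its runs of 65 and 119 counts. Their log2 fold changes of 1.39, 1.78 and 0.99 were -0.082, 0.05 and -0.18 without Maltreated 2. ZNF577 had a log2 fold change of 0.55 ± 0.35 (edgeR adjusted p = 0.999).

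Among all tested genes, 51.3% had a negative log2 fold change. By groups of neighbours, 26 of the 34 tested members from ZNF175 to ZNF331 and 17 of the 23 from ZNF628 to ZNF579 had a negative log2 fold change, with medians of -0.24 and -0.51. From ZNF653 to ZNF791, 13 of 20 had a positive one, with a median of 0.25. In the group from ZNF101 to ZNF726, 12 of 16 were negative, with a median of -0.30, and from ZNF414 to ZNF846 10 of 12, with a median of -0.35. The groups from ZNF575 to ZNF180 (8 of 16 negative, median -0.0068) and from ZNF565 to ZNF573 (11 of 18 negative, median -0.07) were closer to even. The group from ZNF653 to ZNF791 holds the ZNF441 to ZNF136 stretch with its runs in Maltreated 2. The group from ZNF628 to ZNF579 holds the ZNF211 to ZNF547 run of Control 4. Genes of a run repeat the same counts, so their signs are not separate observations. No test was made of these numbers of genes, and the part of the runs in them was not tested.

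In antisense counts no member passed either. The edgeR fit tested 3669 genes, 69 of them members, and called 0 of each (smallest adjusted p = 0.9996). No member reached an unadjusted p under 0.05, where 2.94% of all tested genes did, and the DESeq2 Wald test called 0 members and 28 genes in all. Of the members, 33 had a positive and 36 a negative log2 fold change, with a median of -0.12 against -0.30 in all tested genes. ZNF320 had 113, 33 and 45 antisense counts in Maltreated and 19, 4, 1 and 0 in Control libraries, a log2 fold change of 2.54 ± 1.51 (edgeR adjusted p = 0.9996) without overlap of the scaled counts. ZNF541 (1.60) was the other member higher without overlap, where 2.23% of all tested genes were, and ZNF837 (-0.70) the only one lower, where 2.10% were. ZNF844 had 375, 468 and 52 antisense counts in Maltreated and 124, 40, 68 and 20 in Control libraries. ZNF136 had 464, 476 and 44 in Maltreated and 116, 24, 68 and 0 in Control libraries. Both lie in the ZNF441 to ZNF136 stretch, and the values of Maltreated 2 are large for the depth of that library. Their log2 fold changes were 1.82 and 2.21, and -0.092 and 0.42 without Maltreated 2. ZNF614 (-2.92), ZNF253 (-1.33) and ZNF558 (-2.54) had the smallest p among members with fewer antisense counts in Maltreated sperm. ZNF614 and ZNF558 had enough antisense counts to be tested only through Control libraries, where they were higher. Their negative log2 fold changes are therefore not independent of the filter. Over libraries left out in turn, the value of ZNF558 ranged from -7.07 to -2.03. ZNF614 had 72 antisense counts in Control 3, where 13 counts on the lowest exon of each gene ran from ZNF613 to ZNF432.

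Some members have known roles in germ cells or chromatin. ZNF541, which in the mouse is needed for exit from meiotic prophase, stood at 13.8, 12.1 and 12.7 in Maltreated and 9.67, 19.8, 18.1 and 5.22 in Control libraries. The Maltreated values lie within the Control range. ZNF274, which in human cells binds the 3′ ends of zinc finger genes and recruits SETDB1, had 1.73, 0.385 and 1.18 in Maltreated and 1.37, 1.43, 6.06 and 0 in Control libraries. In Control 3 it lies in a run of 16 counts shared with ZNF8 and ZNF544. ZNF93, which in humans represses a family of L1 elements, had 8.42, 5.17 and 27.4 in Maltreated and 22.3, 23.1, 22.6 and 1.01 in Control libraries. Both groups contain high and low libraries.

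ZNF350, a human partner of BRCA1, had 27.4, 42.0 and 32.1 in Maltreated and 29.5, 16.4, 29.2 and 14.05 in Control libraries. ZNF331, an imprinted gene in humans, had 1.06, 5.57 and 0.535 in Maltreated and 0.207, 1.48, 0 and 0.461 in Control libraries. ZNF420, a human regulator of p53, had 1.15, 0.710 and 2.30 in Maltreated and 1.16, 0.730, 2.58 and 7.21 in Control libraries. The groups overlapped for each of these 3 genes. ZNF473, which takes part in histone pre-mRNA processing, had mean levels of 0.732 ± 0.309 (SD, n = 3) in Maltreated and 1.15 ± 0.780 (SD, n = 4) in Control sperm. ZNF296 was the scarcest of the 11 genes with a listed role, at 0 to 0.952. None of those tested passed in either direction.

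Of 27 genes that work with KRAB zinc finger proteins in silencing, 26 were tested and 0 were called by edgeR, where 0% of all genes were; 14 log2 fold changes were positive and 12 negative, with a median of 0.02. TRIM28, the scaffold that binds the KRAB domain, had 13.5, 3.87 and 11.1 in Maltreated and 6.78, 13.1, 19.9 and 20.2 in Control libraries. SETDB1, which trimethylates histone H3, had 39.3, 53.3 and 43.0 in Maltreated and 36.9, 54.7, 40.2 and 33.1 in Control libraries. For both genes the groups overlapped, and the log2 fold changes were -0.69 ± 0.59 and 0.10 ± 0.28 (SE). CBX5, a heterochromatin protein that reads this mark, stood at 9.86, 8.72 and 9.91 in Maltreated and 8.63, 2.40, 2.17 and 4.395 in Control libraries, with all 4 Control libraries below the 3 Maltreated ones and Control 1 only just. The TMM-scaled counts of CBX5 overlapped, at 109.6 in Maltreated 2 and 110.6 in Control 1. It had the smallest p of the list, with a log2 fold change of 1.06 ± 0.50 (SE, edgeR adjusted p = 0.999). CHD3, a remodeller of the NuRD complex, had 41.4 in Control 4 and 0.696 to 3.67 in the other 6 libraries (log2 -2.17 ± 1.18). FAM208A, a subunit of the HUSH complex, had a log2 fold change of -0.85 ± 0.58.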

How the data were processed

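Total RNA of sperm from 3 Maltreated and 4 Control macaques was sequenced, and each library has a sense and an antisense table with a read count and a covered fraction per exon. The counts and fractions are as deposited: reads were processed by the authors with STAR, featureCounts and bedtools, per the submitters' processing notes, with versions, strand settings and treatment of reads with several map positions not stated. Gene counts are sums over exon entries as deposited; of the 233690 entries 43085 repeat an exon, in 16 members among other genes. Starts were taken as 1-based, since 211 of 296 single-exon receptor genes then have a length divisible by 3. Of 18284 genes, 2 listed on both strands were left out.

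edgeR 4.0.16 in R 4.3.3 (TMM, filterByExpr with a minimum count of 10 and a minimum total of 15, quasi-likelihood test, Benjamini-Hochberg adjustment over all tested genes) compared Maltreated with Control for sense and antisense counts, and antisense with sense counts with the library as a block. DESeq2 1.42.0 and limma 3.58.1 served as alternatives, with other scaling, no filter, each exon counted once, counts above the lower neighbouring exon, and leaving out each library. The fits were tested on simulated data with 8-fold changes in 200 genes at a dispersion of 0.1, below the real one, and 99.0% of them were recovered for sense counts. Biological coefficients of variation in the real fits were 0.858 for sense and 1.33 for antisense counts.

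Named genes are the 10 members with the highest mean level, the 5 with the smallest p in each direction for sense and 3 for antisense counts, the 5 with the largest ratio in each direction between strands, members with full coverage, those with a listed role, the 5 most abundant zinc finger genes of other chromosomes, and the 3 KRAB partners with the smallest p. ZNF90, TRIM28, SETDB1 and the genes named for runs or as neighbours were chosen after their values were seen. Members and lists were chosen with earlier results of these data known. Of the 212 symbols, 188 are current in the name table supplied. Depth is the sum of sense counts, and duplicate reads cannot be told from separate molecules.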

Additional observations from a re-analysis of the deposited data

Results flagged for a closer look

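In 11 of the 48 values looked at, 1 of the 4 Control libraries stood apart from the other 3, with a gap above the 95% critical value of Dixon's test for 4 samples. Chance gives such a gap in about 1 of 20 groups of independent, normally distributed values. Many of the values here belong to genes named for their level, p or strand ratio in these data. The 11 of 48 can therefore not be set against that rate. Control 4 stood high for ZNF548 (sense level 9.88), ZNF418 (6.34) and the KRAB partner CHD3 (41.4), and low for ZNF225 (10.2) and ZNF93 (1.01). Control 1 stood high for ZNF880 (106.6), ZNF136 (0.369) and ZNF417 (0.365), the last from 8 sense counts. Control 2 stood high for ZNF14 (2.66), for ZNF570 (0.242, from 3 counts) and for the median level of zinc finger genes on other chromosomes (1.115). Control 4 is the Control library with most leukocyte RNA, and its part in these values was not tested. For ZNF548 the 57 counts on each exon in Control 4 are shared with the other genes of the run from ZNF211 to ZNF547.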

How the results depend on the processing

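No member was called between Maltreated and Control under any alternative run. Over all genes the DESeq2 Wald test called 3 in sense and 28 in antisense counts, and the antisense fit with no filter called 30, where edgeR called 0. Without Maltreated 2, the log2 fold change was -0.082 for ZNF20 and -0.18 for ZNF625 in sense and -0.092 for ZNF844 in antisense counts. Over libraries left out in turn these reached 1.84, 1.42 and 2.33. With counts above the lower neighbouring exon ZNF625 stood at -0.80. Members with more antisense than sense counts numbered 5, against 2 with counts above the lower neighbouring exon, 8 with limma and 4 to 8 with a library left out, the 8 without Control 4. The median log2 antisense over sense was -6.18 with counts above the lower neighbouring exon, -4.09 with limma, -3.84 with no filter and -5.08 to -4.58 with a library left out. The median level ratio of members to zinc finger genes elsewhere was 1.49 with counts above the lower neighbouring exon, against 2.41. ZNF317 no longer passed with the highest exon count (1.97). The cause of these shifts was not tested. Using the highest exon count, leaving out genes with an overlapping gene on the other strand, and leaving out Control 4 with Maltreated 3 were chosen after seeing the data; without those libraries 0 members were called. Depth limits the scarce members: 156 of 212 had enough sense counts to be tested, and 69 enough antisense counts.

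The labels number the libraries 1 to 3 in both groups. Deviations from the group means of same-numbered libraries correlated at 0.085, 0.032 and -0.013 over 10719 genes, and only the libraries numbered 1 correlated best with their own number, so the numbers were not taken to pair animals. The fit with the replicate block used only the libraries numbered 1 to 3 and so left out Control 4. It called 0 members, with a median log2 fold change of -0.24 for sense and -0.26 for antisense counts. Leaving out Control 4 without a block gave the same medians, -0.24 and -0.26.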
